A study of Mus musculus with 21 samples.

Results

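The genes of cholesterol synthesis and its control by SREBP2 were followed in macrophages grown from mouse bone marrow. The 28 genes were taken from a fixed list of symbols and matched on the first name of the symbol column in both deposited tables. All 28 were found in each table, where 50645 genes were read from the table on fatty acids and 50644 from the table on Western diet. All 28 also passed the filter on low values, for which 3 libraries had to reach a value of 1, and which left 10476 and 10331 genes to test. They were chosen for their function and not for their values, but with earlier results of these data known.

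Cells make cholesterol from acetyl-CoA through mevalonate, isoprenoid diphosphates, squalene and lanosterol, in a chain of enzymes that mostly sit in the endoplasmic reticulum. The transcription factor SREBP2 is made as a membrane precursor, escorted by SCAP to the Golgi when sterols are low, and cut there to release the part that switches these genes on. When sterols are plentiful, INSIG proteins hold SCAP and the precursor in the endoplasmic reticulum. Macrophages also take up cholesterol from dead cells and lipoproteins, so genes of lysosomal export and of ester storage stand beside those of synthesis in this cell type.

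The study measured RNA in 21 libraries of C57Bl6/J bone marrow-derived macrophages, in 7 groups of 3, grown for 7 days in medium with L929 cell supernatant. Donors ate standard chow or a Western diet high in fat, sugar and cholesterol over 24 weeks, and the labels also give 24 weeks as the age of the donors. The fatty acid table holds macrophages of chow-fed mice in 4 groups: untreated; with 100 ng/ml lipopolysaccharide (LPS) for 24 h; with 10 mM palmitic and oleic acid during the first 4 days and LPS afterwards; and with the fatty acids plus 200 nM TAK242 during those 4 days, then LPS. TAK242 blocks TLR4, the receptor for LPS, and cells were washed between pretreatment and LPS. The Western diet table has its own untreated chow macrophages, numbered 4 to 6, beside 3 libraries labelled as Western diet without LPS and 3 as Western diet with LPS. No group had fatty acid without LPS, or TAK242 without fatty acid, so neither agent can be described alone. The labels do not say whether a replicate is an animal or a culture, so p-values measure the spread between these libraries, which may be technical.

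Library sums lay between 321532 and 386023 deposited values, and 8803 to 10145 genes reached a value of 1. The deposited values behave like FPKM (reads per length of transcript and library size), but their unit, their depth and the counting are not given in the sources used here. Macrophage markers were present in every library, with sums over 8 genes of 5847 to 15420, and hepatocyte markers were listed at 0 in all 12 libraries of the fatty acid table. No dendritic, B or T cell or hepatocyte marker passed the filter. Against their labels, 2 of the 3 libraries labelled Western diet without LPS had values of the LPS-induced chemokine Ccl5 of 7846 and 10970, and 2 of the 3 labelled Western diet with LPS had 0.463 and 10.5. The fatty acid table showed no such conflict. In whole cultures, fewer cells of a type and less RNA per cell cannot be told apart.

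LPS lowered most genes of the pathway. Of the 28 genes, 24 fell and 0 rose in LPS-treated against untreated macrophages of chow-fed mice (limma with a mean-variance trend on log2(value + 1), Benjamini-Hochberg adjusted p under 0.05 over all 10476 genes). LPS lowered 47.9% of all genes tested and raised 13.8%, so the background itself leaned downward. The median change of the 28 genes was -1.10 on the log2 scale, against -0.31 for all genes tested. In 25 of the 28 genes every LPS library lay below every untreated library, an arrangement seen in 50.1% of all genes. Scaling each library by its median ratio to the others moved the median of all genes to 0.01, and after it 23 of the 28 genes were lower and 1 higher, with a median of -0.77, where 26.9% of all genes were lower and 27.2% higher.

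**Figure D1:**
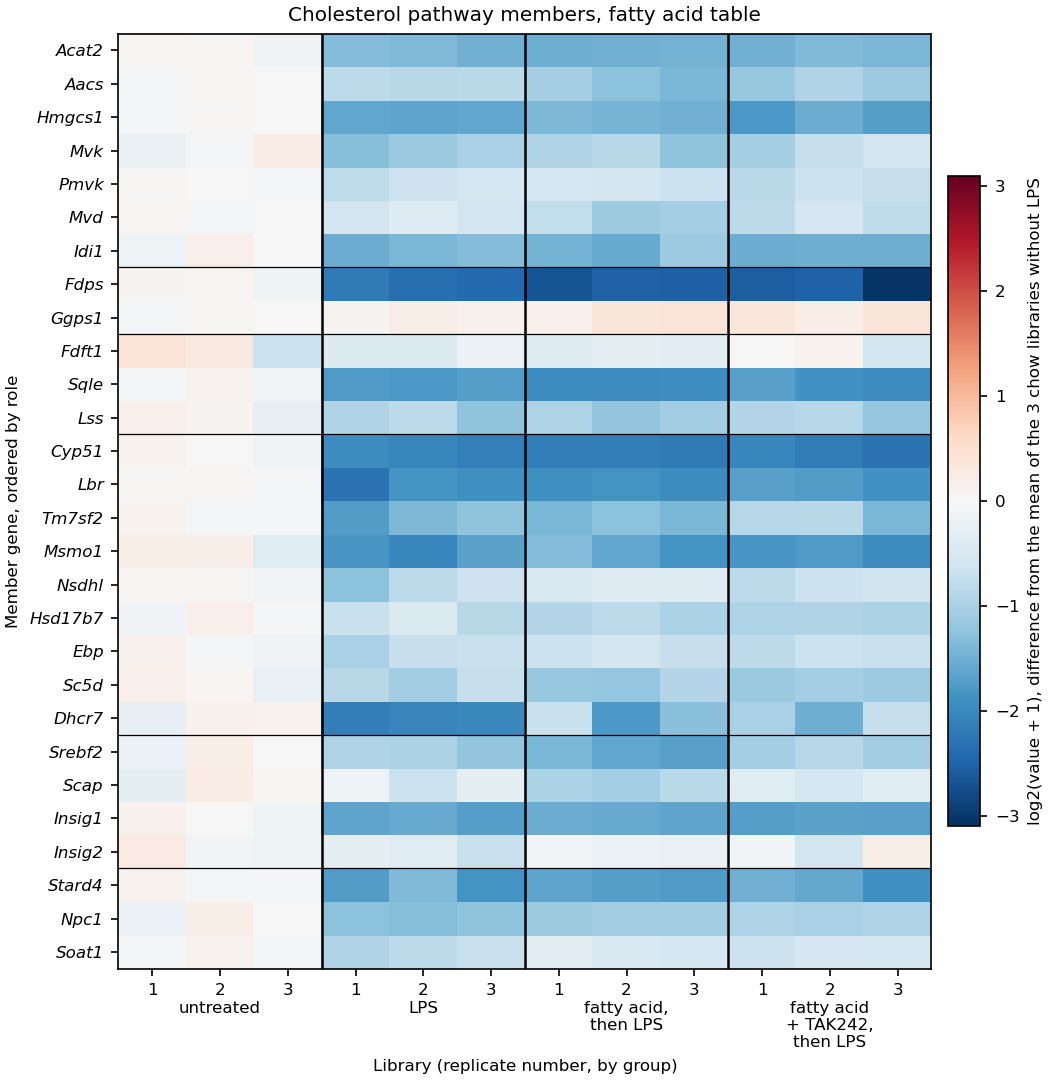
Each cell is the log2(value + 1) of a gene in a library, minus the mean of the 3 untreated libraries, for the 28 genes (vertical, ordered by role) and the 12 libraries of the fatty acid table (horizontal, 3 per group). Blue is lower and red higher. Fdps reached -3.03 in a library with fatty acid and TAK242, and Ggps1 was above the untreated mean in all 9 libraries with LPS.

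All 7 genes that lead from acetyl-CoA to the isoprenoid building blocks fell. Hmgcs1, whose enzyme makes hydroxymethylglutaryl-CoA, had values of 20.1, 21.1 and 20.9 in the untreated libraries and 6.16, 6.003 and 6.05 with LPS. The groups were far apart and each was tight, with a log2 change of -1.62 (SE 0.08, adjusted p = 2.75e-08). Idi1, which isomerises isopentenyl diphosphate, went from a mean of 4.01 ± 0.552 to 0.848 ± 0.132 (SD, n = 3), a change of -1.43. Acat2, the cytosolic thiolase that joins acetyl-CoA units, changed by -1.40, and Mvk, which phosphorylates mevalonate, by -1.15. Smaller falls were those of Aacs, which activates acetoacetate (-0.84), of Pmvk, the next kinase (-0.66), and of Mvd, the decarboxylase (-0.53). Mvd, which overlaps Gm20388 on the opposite strand (means 15.7 and 13.2), was the gene that lost its call after scaling, with a scaled change of -0.19 (limma adjusted p = 0.154).

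Of the pair of synthases that follow, Fdps fell and Ggps1 did not pass the test. Fdps, which makes farnesyl diphosphate for sterols and for protein prenylation (chromosome 3, 89093588 to 89101959), had untreated values of 60.9, 60.3 and 52.1. With LPS its values were 11.9, 10.6 and 10.0, all far below the untreated libraries. Its change of -2.31 (SE 0.14, adjusted p = 1.21e-07) was the largest among the 28 genes on the log2(value + 1) scale, while by the ratio of means it was 5.34-fold lower, less than Dhcr7, Stard4, Cyp51 and Lbr. Gm43738, a gene model on the same strand that overlaps Fdps, fell alongside from a mean of 31.6 to 8.19, and how reads were divided between them is unknown. Ggps1, which extends farnesyl to geranylgeranyl diphosphate and overlaps Arid4b on the opposite strand, had 2.18, 2.42 and 2.36 untreated and 2.49, 2.81 and 2.64 with LPS. The LPS libraries were higher and the groups did not overlap, yet its change of 0.14 did not pass the test (adjusted p = 0.205), and after scaling it was higher by 0.41 (limma adjusted p = 0.0048). Before scaling, 1572 of the 10476 genes tested lay higher with LPS without overlap.

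Sqle, which adds oxygen to squalene and is a slow step of the pathway, had 17.3, 19.1 and 16.6 untreated and 4.51, 4.44 and 4.69 with LPS. It changed by -1.75 (SE 0.09, adjusted p = 3.15e-08). Lss, which folds the product into lanosterol, changed by -1.0, from 4.47 ± 0.785 to 1.74 ± 0.397. Fdft1, squalene synthase, did not pass the test (-0.34, adjusted p = 0.266), with untreated values of 560.0, 519.3 and 267.2 against 318.1, 318.2 and 375.9. Its values cannot be read as squalene synthase alone, because the gene overlaps the abundant cathepsin gene Ctsb on the opposite strand (means 2736 untreated and 1297 with LPS) and strand use is not given.

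All 9 genes that turn lanosterol into cholesterol fell. Cyp51, the lanosterol demethylase (chromosome 5, 4081145 to 4104746), had 11.2, 10.6 and 9.50 untreated and 1.95, 1.79 and 1.64 with LPS. It was 5.83-fold lower by means, a log2 change of -2.03 (SE 0.09, adjusted p = 1.41e-08). Cyp51 touches Akap9 on the opposite strand, whose means of 4.24 ± 1.05 untreated and 2.66 ± 0.593 with LPS differed less. Dhcr7, the reductase that turns dehydrocholesterol into cholesterol, had 4.11, 5.73 and 5.59 untreated and 0.382, 0.486 and 0.514 with LPS. Its mean was 11.2-fold lower, which the log2(value + 1) scale gives as -2.06 (SE 0.26, adjusted p = 4.60e-05) because low values are compressed on it.

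Lbr encodes a sterol reductase that is also a receptor for lamins in the nuclear envelope. Its untreated values of 10.5, 10.6 and 9.79 stood well above those with LPS, 1.29, 2.17 and 2.02 (-2.01, SE 0.12, adjusted p = 1.04e-07). Tm7sf2, which encodes the other enzyme for the same reduction, changed by -1.46 and overlaps Vps51 on the same strand (means 10.3 and 7.92). Msmo1, the oxidase that removes methyl groups, had 27.0, 26.9 and 18.1 untreated and 6.09, 5.02 and 6.80 with LPS. The third untreated library was lower than the others but still above all LPS libraries (-1.83, SE 0.17, adjusted p = 5.01e-06). Nsdhl and Hsd17b7, which act in the same removal, changed by -0.91 and -0.66. Ebp, the sterol isomerase, changed by -0.80 and Sc5d, a sterol desaturase, by -0.89.

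Of the 4 genes of the sterol sensor, Srebf2 and Insig1 fell. Srebf2, which encodes SREBP2 (chromosome 15, 82147266 to 82205376), had 12.4, 16.5 and 14.2 untreated and 7.05, 6.74 and 5.53 with LPS. Every LPS library was below every untreated one, a change of -1.04 (SE 0.12, adjusted p = 2.77e-05). Insig1, itself a gene that SREBP switches on, had 14.0, 12.8 and 11.4 untreated and 3.38, 3.63 and 3.19 with LPS, a change of -1.64 (SE 0.08, adjusted p = 4.01e-08). Insig2, its relative, had 6.13, 4.56 and 4.28 untreated and 3.88, 3.58 and 2.67 with LPS. The groups did not overlap, but the change of -0.45 missed the threshold (SE 0.19, adjusted p = 0.0557). Scap had 4.59, 7.01 and 6.003 untreated and 5.13, 3.30 and 4.56 with LPS, so the groups overlapped (-0.37, SE 0.15, adjusted p = 0.0602). After scaling, Srebf2 and Insig1 stayed lower (-0.69 and -1.30), while Scap and Insig2 changed by -0.04 and -0.14.

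The 3 genes that move or store cholesterol fell as well. Npc1, which exports cholesterol from lysosomes, had 62.7, 82.4 and 70.3 untreated and 28.8, 27.9 and 29.6 with LPS (-1.28, SE 0.09, adjusted p = 5.11e-07). Npc1 overlaps Rmc1 on the opposite strand, listed in the table as 3110002H16Rik, whose means were 35.2 ± 3.71 untreated and 46.5 ± 10.3 with LPS. Soat1, which esterifies cholesterol for storage in droplets, had 41.9, 47.1 and 43.0 untreated and 22.5, 24.4 and 26.7 with LPS (-0.82, SE 0.09, adjusted p = 1.40e-05). Stard4, a cytosolic sterol carrier, went from 3.70 ± 0.338 to 0.508 ± 0.266 (-1.65, SE 0.13, adjusted p = 1.41e-06). All 24 falls held when each of the 6 libraries compared was left out in turn.

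**Figure D2:**
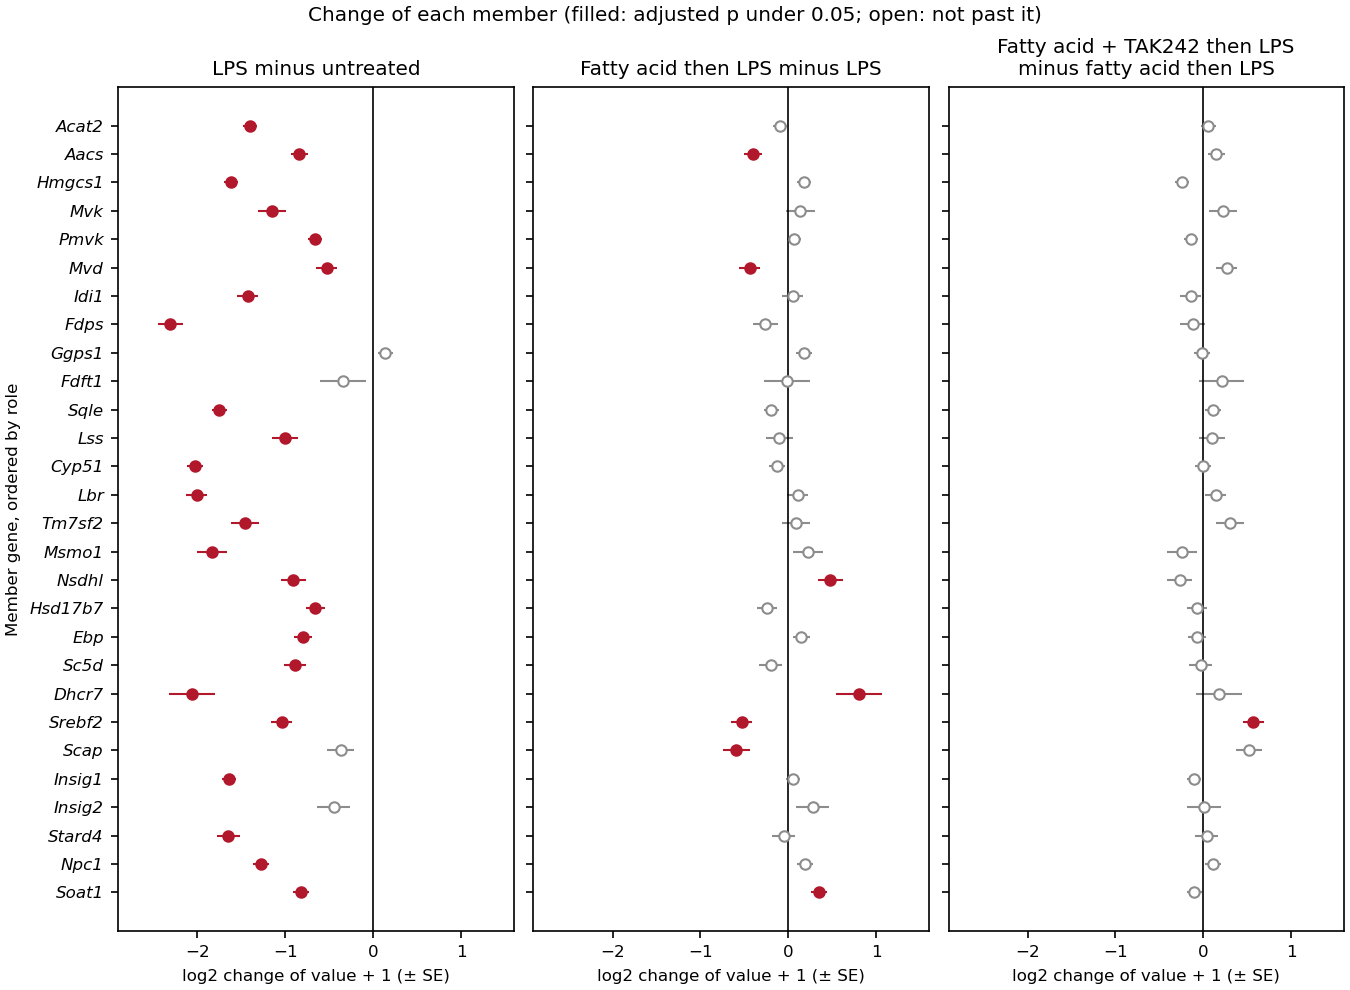
Log2 change of value + 1 with its standard error (horizontal) for each of the 28 genes (vertical), in 3 comparisons of the fatty acid table with 3 libraries a group. Filled points passed an adjusted p of 0.05, 24 of them for LPS against untreated, 7 for fatty acid before LPS against LPS, and 1 for added TAK242.

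Neighbouring pathways gave the setting for these falls. Of 12 tested genes of SREBP1 and fatty acid synthesis, 8 fell and 2 rose with LPS, among them the desaturase gene Fads2 (-1.78, limma adjusted p = 5.68e-09) and the phosphatidate phosphatase gene Lpin1 (-1.94, limma adjusted p = 2.07e-08). Of 9 tested genes that process or degrade proteins of the SREBP2 system, 4 fell and 0 rose, including both protease genes Mbtps1 (-0.61) and Mbtps2 (-0.83), but after scaling the counts were 2 lower and 3 higher. Of 9 genes of cholesterol efflux and LXR, the sterol-sensing receptor that opposes SREBP2, 5 fell and 2 rose. Apoe, a lipid carrier, changed by -1.85 and Nr1h3, which encodes LXR alpha, by 2.20. Of 12 genes of sterol transport and oxysterol enzymes, 7 fell and 2 rose, and after scaling 5 were lower and 4 higher. Cyp27a1, the sterol hydroxylase, changed by -2.17 before scaling. Of 15 tested genes of the isoprenoid and dolichol branch, 6 fell and 0 rose, and after scaling 2 were lower and 4 higher.

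Other cell programmes moved at the same time. All 22 cell cycle genes fell with LPS (median -3.49), and their summed value dropped from a range of 1171 to 1207 to a range of 116.9 to 209.9. All 5 tested stromal markers rose, with sums over 8 markers of 7.86 to 15.9 untreated and 24.9 to 55.0 with LPS, and 1 of the 8 was listed at 0 in each of these libraries. Of 4 tested neutrophil markers 2 rose, with sums over 8 markers of 32.4 to 47.4 and 117.1 to 383.4, and 1 to 4 of the 8 were listed at 0 with LPS. Of 8 macrophage markers 5 rose and 1 fell, with sums of 9667 to 10790 and 10320 to 10660. The part of any of these in the falls of the sterol genes was not tested.

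Promoters were sought for all of the 28 genes, also those not called lower with LPS, such as Ggps1, Scap and Insig2. RefSeq (GRCm38.p6) gave the 250 bases before the start for 23 of the 28 genes, and none was read for Fdps, Fdft1, Sqle, Stard4 or Npc1. This start is that of the promoter entry and can lie away from the end of the deposited gene coordinates. The bases searched for Lbr lie inside the gene, which spans 181815335 to 181843046 on chromosome 1. The sterol regulatory element was searched as TCACNCCAC on both strands and matched in 1 of the 23, Hmgcs1, against 1.23% of the 27018 genes with a promoter and 1.25% of the 7550 genes tested here that have one. CCAAT, the box of NF-Y, a partner of SREBP, was found on either strand in 20 of the 23 genes (87.0%), against 37.5% of all genes and 40.5% of those tested. GGGCGG, the box of Sp1, was found in 19 of the 23 (82.6%), against 35.4% of all genes and 64.0% of those tested. The last shares cover 7550 of the 10476 genes tested, since the others have no promoter entry. A match is a run of letters and not a shown site, and a gene without TCACNCCAC may hold other forms of the element. The 5 genes with the largest LPS falls among those that passed the test and had 1 promoter entry are printed, a choice made after their values were seen. They are Cyp51 (chr5:4104698-4104947, minus strand), Lbr (chr1:181842402-181842651, minus), Msmo1 (chr8:64733579-64733828, minus), Insig1 (chr5:28071162-28071411, plus) and Hmgcs1 (chr13:119690101-119690350, plus), with matches to the 3 motifs in capitals and the last base next to the start.
Cyp51: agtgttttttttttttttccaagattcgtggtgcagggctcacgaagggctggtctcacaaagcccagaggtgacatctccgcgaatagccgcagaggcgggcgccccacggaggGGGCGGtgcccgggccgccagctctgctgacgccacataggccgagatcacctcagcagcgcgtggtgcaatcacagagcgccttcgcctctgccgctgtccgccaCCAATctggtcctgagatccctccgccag
Lbr: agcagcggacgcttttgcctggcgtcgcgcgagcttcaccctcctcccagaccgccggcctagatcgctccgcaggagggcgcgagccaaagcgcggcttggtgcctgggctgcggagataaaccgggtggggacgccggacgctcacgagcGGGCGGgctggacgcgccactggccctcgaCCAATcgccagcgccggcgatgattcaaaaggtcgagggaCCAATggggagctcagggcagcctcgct
Msmo1: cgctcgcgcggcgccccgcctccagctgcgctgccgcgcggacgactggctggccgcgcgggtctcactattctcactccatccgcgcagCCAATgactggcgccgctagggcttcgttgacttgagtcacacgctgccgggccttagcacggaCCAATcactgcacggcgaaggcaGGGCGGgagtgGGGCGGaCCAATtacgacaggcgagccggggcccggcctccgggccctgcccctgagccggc
Insig1: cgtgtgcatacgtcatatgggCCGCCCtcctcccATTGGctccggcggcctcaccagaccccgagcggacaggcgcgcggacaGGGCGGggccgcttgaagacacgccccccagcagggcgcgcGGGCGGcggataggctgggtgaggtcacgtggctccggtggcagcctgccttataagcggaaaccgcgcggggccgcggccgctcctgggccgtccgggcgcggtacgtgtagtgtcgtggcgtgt
Hmgcs1: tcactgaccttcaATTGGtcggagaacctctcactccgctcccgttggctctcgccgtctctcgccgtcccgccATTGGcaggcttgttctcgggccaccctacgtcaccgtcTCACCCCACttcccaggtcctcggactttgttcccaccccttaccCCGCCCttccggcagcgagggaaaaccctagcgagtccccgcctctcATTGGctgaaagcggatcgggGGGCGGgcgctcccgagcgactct

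Each of the 5 sequences holds at least 1 CCAAT or its reverse complement ATTGG. In Hmgcs1, the run TCACCCCAC lies between 2 copies of ATTGG upstream and 1 copy downstream. Msmo1 holds 3 copies of CCAAT and Insig1 holds 1, as ATTGG. Whether the number of copies goes with the size of the fall was not tested.

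Fatty acid before LPS changed few genes of the pathway relative to LPS alone, with Srebf2 and Scap among them. In this comparison 3 of the 28 genes were higher and 4 lower, against 21.8% and 15.3% of all genes tested, so calls were no more common than the background. The median change was 0.06 for the 28 genes and 0.06 for all genes.

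Among the lower genes, Srebf2 had 7.05, 6.74 and 5.53 with LPS and 4.71, 3.97 and 3.75 with fatty acid before LPS. All fatty acid libraries were below all LPS libraries (-0.53, SE 0.12, adjusted p = 0.00762). Scap, the escort of the SREBP2 precursor, had 5.13, 3.30 and 4.56 with LPS and 2.46, 2.27 and 2.80 with fatty acid before LPS (-0.59, SE 0.15, adjusted p = 0.0131). Aacs went from 5.06, 4.93 and 4.98 to 4.20, 3.46 and 3.01 (-0.40, SE 0.10, adjusted p = 0.012). Mvd went from 5.36, 6.36 and 5.39 to 4.70, 3.51 and 3.62 (-0.44, SE 0.12, adjusted p = 0.0129). In each of these genes the groups did not overlap. Of the 28 genes 7 lay lower in this way, as did 2244 of the 10476 genes tested. Mvd missed the threshold without replicate 2 of the LPS group or without replicate 2 of the fatty acid group (limma adjusted p = 0.0501 and 0.0531).

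Among the higher genes, Soat1 had 22.5, 24.4 and 26.7 with LPS and 34.0, 30.9 and 29.6 with fatty acid before LPS. The groups stood apart (0.35, SE 0.09, adjusted p = 0.0116), and the fatty acid libraries remained below the untreated ones. Of the 28 genes 6 lay higher than with LPS alone without overlap, as did 3125 of the 10476 genes tested. Dhcr7 had 0.382, 0.486 and 0.514 with LPS and 2.76, 0.768 and 1.502 with fatty acid before LPS, so the second group was spread widely (0.81, SE 0.26, adjusted p = 0.0326). Dhcr7 missed the threshold without any one library of the comparison other than replicate 2 of the fatty acid group, with limma adjusted p from 0.0536 to 0.112. Nsdhl had 2.85, 4.34 and 4.98 with LPS and 5.65, 6.06 and 6.09 with fatty acid before LPS (0.48, SE 0.14, adjusted p = 0.0217). Nsdhl missed the threshold without replicate 2 or 3 of the fatty acid group (limma adjusted p = 0.0619 and 0.0614).

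Most genes with deep LPS falls did not pass this test. Cyp51 had 1.59, 1.58 and 1.48 with fatty acid before LPS (-0.13 against LPS, adjusted p = 0.289) and Hmgcs1 had 7.30, 6.99 and 6.71 (0.18, adjusted p = 0.101). Insig1 had 3.73, 3.61 and 3.42 (0.06, SE 0.08, adjusted p = 0.61), while Insig2 had 4.61, 4.26 and 4.02 (0.28, SE 0.19, adjusted p = 0.251). Npc1 had 32.5, 33.1 and 33.5, above all 3 LPS libraries but not past the threshold (0.19, SE 0.09, adjusted p = 0.118). These p-values do not show that the groups were alike.

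Genes of cholesterol efflux are the counterpart of those of synthesis. Of 9 tested efflux and LXR genes, 4 rose and 1 fell, among them Abcg1, a sterol exporter, with 3.49, 4.44 and 5.35 after LPS and 18.4, 17.2 and 16.9 with fatty acid before LPS. Apoc1 changed by 1.58 (limma adjusted p = 4.83e-05) and Pltp by 2.45 (limma adjusted p = 6.53e-05). Of 12 genes of SREBP1 and fatty acid synthesis 2 rose and 3 fell, the latter including Srebf1 and Fasn, the fatty acid synthase gene (-0.51, limma adjusted p = 0.012). Of 12 sterol transport and oxysterol genes 5 rose and 1 fell, of 9 genes of SREBP2 processing and degradation 2 rose and 0 fell, and of 15 isoprenoid genes 2 rose and 2 fell. Of 5 tested stromal markers 4 fell, with sums of 9.37 to 12.6 against 24.9 to 55.0, and of 4 tested neutrophil markers 2 fell. Their part in the changes of the sterol genes was not tested.

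**Figure D3:**
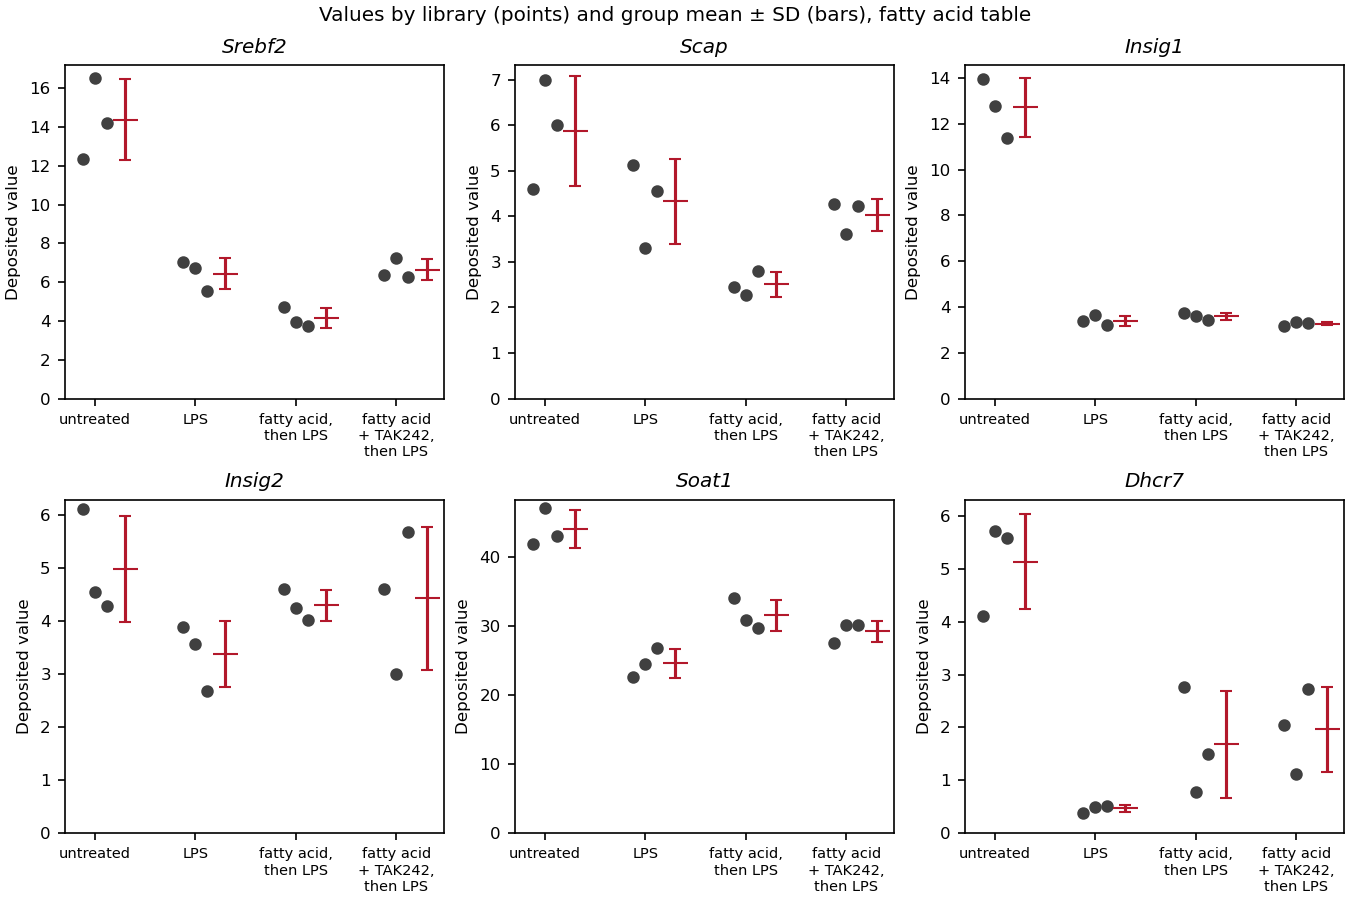
Deposited values (vertical) of 6 genes in the 4 groups of the fatty acid table (horizontal), with points for the 3 libraries and bars for the mean ± SD. Srebf2 and Scap were lowest with fatty acid before LPS, Insig1 lay between 3.19 and 3.73 in all 9 libraries with LPS, and Dhcr7 spread from 0.768 to 2.76 with fatty acid before LPS.

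Against untreated cells, fatty acid before LPS left 25 of the 28 genes lower and 1 higher, where 44.9% and 15.2% of all genes tested were lower and higher. This comparison shares its untreated libraries with that of LPS alone and its other libraries with the preceding comparison, so the values are given beside those and not as further evidence. The median was -1.17, against -0.26 for all genes. Fdps had 8.12, 9.38 and 9.08 with fatty acid before LPS, below every library of LPS alone (-2.57 against untreated, SE 0.14, adjusted p = 5.20e-08). Sqle had 3.84, 3.83 and 3.87 (-1.94, SE 0.09, adjusted p = 1.50e-08), and Cyp51 stood at -2.16 (SE 0.09, adjusted p = 9.19e-09). Lbr had 1.999, 2.15 and 1.92 (-1.90, SE 0.12, adjusted p = 1.64e-07) and Stard4 had 0.514, 0.427 and 0.391 (-1.70, SE 0.13, adjusted p = 1.17e-06). In all of these the groups were far apart. Of the 28 genes 25 lay lower without overlap, as did 5232 of the 10476 genes tested. Srebf2 stood at -1.58 (SE 0.12, adjusted p = 1.13e-06), Insig1 at -1.58 (SE 0.08, adjusted p = 5.38e-08) and Scap at -0.96 (SE 0.15, adjusted p = 0.000286). Npc1 stood at -1.09 (SE 0.09, adjusted p = 1.91e-06) and Soat1 at -0.47 (SE 0.09, adjusted p = 0.000834). Ggps1 was the higher gene, with 2.71, 3.29 and 3.38 (0.31, SE 0.09, adjusted p = 0.0103), and Fdft1 and Insig2 did not pass the test. After scaling Nsdhl and Soat1 lost their calls (limma adjusted p = 0.377 and 0.0566), and Nsdhl also missed the threshold without replicate 1 or 2 of the untreated group or replicate 1 of the fatty acid group (0.0604, 0.0539 and 0.0594).

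TAK242 with the fatty acid raised 1 of the 28 genes relative to fatty acid alone, both followed by LPS, and lowered 0. Of all genes tested 3.01% were higher and 1.68% lower. At an unadjusted p under 0.05 limma gave 3 higher and 1 lower among the 28, against 12.7% and 10.3% of all genes. Calls among the 28 genes were thus no more common than the background, or hardly so. The gene called higher was Srebf2, with 4.71, 3.97 and 3.75 without TAK242 and 6.36, 7.25 and 6.29 with it. The groups did not overlap (0.57, SE 0.12, adjusted p = 0.0319). The call did not hold without replicate 2 or 3 of the fatty acid group or without any of the TAK242 replicates, with limma adjusted p from 0.0567 to 0.136. Scap had 4.26, 3.62 and 4.22 with TAK242, above all fatty acid libraries, but missed the threshold (0.52, SE 0.15, adjusted p = 0.0822). Of the 28 genes 3 lay higher without overlap here, as did 1900 of the 10476 genes tested. The libraries with fatty acid alone are also those compared with LPS alone, so the changes of Srebf2 and Scap in both comparisons are not independent.

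No other controller or handling gene passed this test. Insig1 had 3.19, 3.33 and 3.30 with TAK242 (-0.10, SE 0.08, adjusted p = 0.501) and Insig2 had 4.61, 3.00 and 5.69 (0.01, SE 0.19, adjusted p = 0.988). Soat1 had 27.5, 30.2 and 30.0 (-0.10, SE 0.09, adjusted p = 0.514) and Npc1 had 36.0, 34.9 and 36.0 (0.11, SE 0.09, adjusted p = 0.515). Among the enzymes, Hmgcs1 had 5.27, 6.46 and 5.62, all below the fatty acid libraries (-0.24, SE 0.08, adjusted p = 0.106), and was called lower only after scaling (-0.25, limma adjusted p = 0.0453). Of the 28 genes 4 lay lower without overlap, as did 1962 of the 10476 genes tested. Of the efflux and LXR genes 4 of 9 fell, with Apoe at -1.43 and Apoc1 at -1.38, and Fasn, 1 of 12 genes of fatty acid synthesis, rose by 0.59 (limma adjusted p = 0.0338). Of the transport and oxysterol genes 1 of 12 rose, Lrp1, and of the isoprenoid and the processing genes 0 changed by this test. Of 5 tested stromal markers 2 rose, with sums of 20.4 to 24.7 against 9.37 to 12.6, and their part in these changes was not tested.

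Relative to LPS alone, fatty acid with TAK242 before LPS changed 0 of the 28 genes by limma, against 4.05% of all genes higher and 1.84% lower. At an unadjusted p under 0.05 there were 5 higher and 3 lower, against 19.5% and 10.3% of all genes, so these counts were near the background. Srebf2 stood at 0.04 (SE 0.12, adjusted p = 0.858) with groups that overlapped, and Scap at -0.07 (SE 0.15, adjusted p = 0.793). Dhcr7 had 2.04, 1.12 and 2.73 against 0.382, 0.486 and 0.514, and missed the threshold narrowly (0.98, SE 0.26, adjusted p = 0.0521). Npc1 (0.30, SE 0.09, adjusted p = 0.0689) and Soat1 (0.24, SE 0.09, adjusted p = 0.103) were above all LPS libraries in every library with TAK242. That arrangement was seen in 3 of the 28 genes and in 2343 of the 10476 genes tested. Insig1 stood at -0.04 (SE 0.08, adjusted p = 0.767) and Insig2 at 0.29 (SE 0.19, adjusted p = 0.313). Of 9 efflux and LXR genes 2 rose, Pltp by 1.27 and Abcg1 by 0.86 on the log2 scale.

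In the Western diet table the pathway differed widely between libraries of the same label. Libraries labelled Western diet without LPS were compared with untreated chow libraries, and 0 of the 28 genes passed the test in either direction, where 0.0678% of all genes were higher and 0.165% lower. At an unadjusted p under 0.05 limma gave 0 higher and 4 lower, namely Lbr, Pmvk, Scap and Srebf2, against 6.7% and 20.6% of all genes. The median change was -0.60, against -0.32 for all genes, and after scaling -0.26 against 0.01.

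The spread within the label was wide. Srebf2 had 18.6, 18.1 and 16.2 in the chow libraries and 4.26, 18.4 and 4.44 in those labelled Western diet without LPS (-1.18, SE 0.51, adjusted p = 0.183). Scap had 7.84, 10.5 and 7.75 against 1.90, 4.97 and 1.79, with no overlap (-1.40, SE 0.38, adjusted p = 0.183). Lying lower without overlap was seen in 4 of the 28 genes and in 2176 of the 10331 genes tested. Fdps had 33.2, 30.7 and 30.5 against 7.35, 51.7 and 3.84 (-1.33, SE 0.94, adjusted p = 0.314). In each of these genes replicates 1 and 3 were low and replicate 2 was higher. Insig1 had 5.46, 4.87 and 4.49 against 2.81, 6.31 and 2.23 (-0.40, SE 0.54, adjusted p = 0.586), and Insig2 had 4.56, 4.24 and 4.44 against 5.39, 4.77 and 3.02 (-0.03, SE 0.20, adjusted p = 0.912).

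Across the 28 genes, the median difference from the chow mean was -1.0 in replicate 1, 0.16 in replicate 2 and -1.12 in replicate 3 of the libraries labelled Western diet without LPS. The same medians over all genes tested were -0.50, 0.02 and -0.49. Replicates 1 and 3 were also those with Ccl5 at 7846 and 10970, against 13.7 in replicate 2 and 1.57 to 2.38 in the chow libraries. Their summed cell cycle values of 150.1 and 138.8 compared with 1284 in replicate 2 and 1360 to 1457 in the chow libraries. Without replicate 2, 14 of the 28 genes were lower and 0 higher, where 44.4% of all genes were lower and 12.1% higher. The part of LPS or of the cell cycle in these values was not tested.

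Between the labels Western diet with LPS and without, 1 of the 28 genes was higher and 0 lower, where 0.678% of all genes were higher and 0.281% lower. At an unadjusted p under 0.05 limma gave 14 higher and 0 lower, against 11.1% and 6.11% of all genes. The median was 1.10, against 0.16 for all genes. Soat1 was the called gene, with 14.2, 11.8 and 13.9 without and 31.7, 35.3 and 24.1 with the LPS label, and no overlap (1.12, SE 0.20, adjusted p = 0.0461). Without any of replicates 1 and 3 lacking the LPS label or replicates 1 and 2 bearing it, the call was lost, with limma adjusted p from 0.155 to 0.231. Npc1 had 20.7, 35.7 and 20.3 without and 80.9, 85.0 and 34.4 with the label, so replicate 3 overlapped (1.29, SE 0.41, adjusted p = 0.183). Of the 28 genes 3 lay higher with the label without overlap, as did 798 of the 10331 genes tested.

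Among the controllers, Insig1 had 21.6, 24.7 and 5.27 in the libraries labelled Western diet with LPS, the first pair above every other library of the table (1.78, SE 0.54, adjusted p = 0.164). Srebf2 had 21.8, 21.7 and 10.6 there (1.15, SE 0.51, adjusted p = 0.294) and Scap had 8.95, 9.57 and 4.02 (1.15, SE 0.38, adjusted p = 0.201). Insig2 had 4.48, 3.83 and 3.86 (-0.07, SE 0.20, adjusted p = 0.859). Fdps had 108.8, 99.0 and 18.0, again with replicates 1 and 2 high and replicate 3 low, and Dhcr7 had 7.25, 8.66 and 3.59 against 0.45, 2.32 and 0.567. Ggps1 ran the other way, with 1.79, 1.76 and 2.58.

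**Figure D4:**
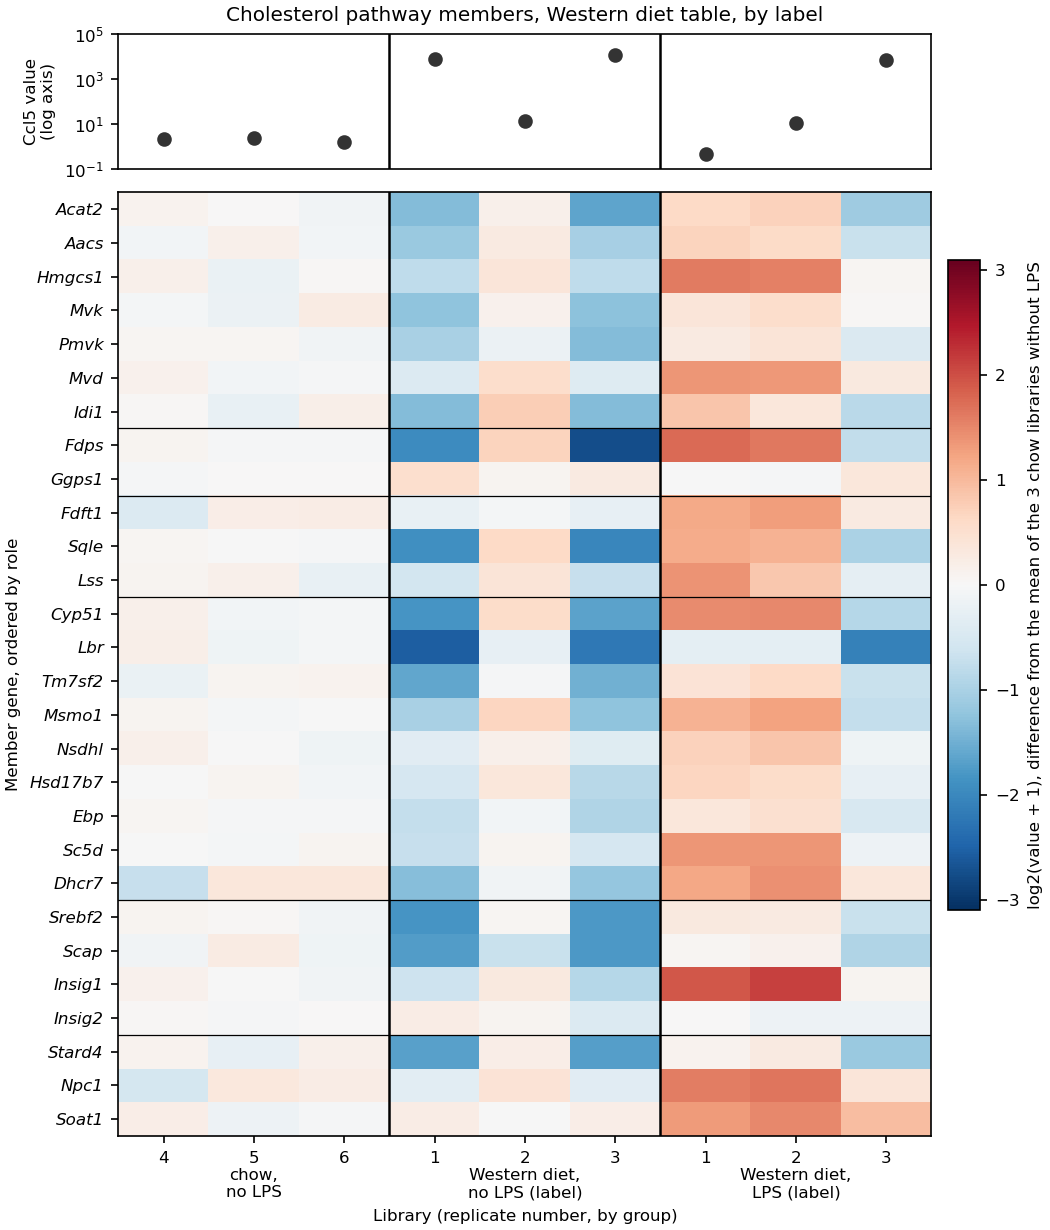
Lower panel: log2(value + 1) minus the mean of the 3 chow libraries for the 28 genes (vertical) and the 9 libraries of the Western diet table by label (horizontal), blue lower and red higher. Upper panel: the value of Ccl5 in the same libraries on a log axis. Libraries with Ccl5 at 6905, 7846 and 10970 have medians over the 28 genes of -0.36, -1.0 and -1.12. Their medians over all genes tested are -0.34, -0.50 and -0.49.

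The median difference from the chow mean over the 28 genes was 0.78 in replicates 1 and 2 and -0.36 in replicate 3 labelled Western diet with LPS, where all genes had -0.08, -0.07 and -0.34. Ccl5 was 0.463, 10.5 and 6905 in that order, and summed cell cycle values were 981.3, 1102 and 302.2. In 22 of the 28 genes replicates 1 and 2 with the LPS label were the 2 highest of the 9 libraries, and in 23 genes replicates 1 and 3 without it were the 2 lowest. Over all genes tested these orders were seen in 14.9% and 42.7%. Both held in 19 of the 28 genes and in 9.16% of all genes. The exceptions were Ggps1, Insig2, Lbr, Idi1, Scap, Stard4, Fdft1, Npc1 and Soat1.

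Without the 4 libraries whose LPS-induced genes went against the label, 1 library of each label was left, and the spread came from the chow libraries alone. In that fit 11 of the 28 genes were lower and 1 higher with the LPS label, the lower ones being Aacs, Acat2, Cyp51, Fdps, Hsd17b7, Idi1, Lbr, Msmo1, Sqle, Srebf2 and Stard4. Of all genes tested 23.6% were lower and 8.35% higher in it. Fdps then rested on 51.7 without and 18.0 with the label, Srebf2 on 18.4 and 10.6, and Soat1, the higher gene, on 11.8 and 24.1. The same fit called 0 of the 28 genes between the remaining library labelled Western diet without LPS and the chow libraries, and 0.116% of all genes higher and 0.106% lower. Without replicate 2 lacking the LPS label 24 genes were higher with it and 0 lower, against 29.8% and 9.72% of all genes. Without replicate 3 bearing the label 10 were higher and 0 lower, against 5.04% and 2.19%.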

How the data were processed

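RNA of 21 macrophage libraries was analysed from 2 deposited tables, one value per gene and library. The submitters' processing notes name HISAT2 2.0.5, Trim Galore 0.4.1, CASAVA 1.8.2 and FastQC 0.11.5, with mm9 and mm10 as builds of unstated role. The counting step, strand use and unit of the values the authors deposited are not given in the sources used here. Low values step like FPKM, so they were treated as normalized values, the route set for that case, and no count test was run. Depth per library is unknown. Entries with displaced numbers (36 and 35 entries) were left out and held none of the 28 genes. Gene coordinates equal GENCODE M21 (GRCm38) except for Hmgcs1, Ggps1, Fdft1, Srebf2 and Npc1.

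A gene was kept where 3 libraries reached a value of 1. Log2(value + 1) was fitted with limma 3.58.1 (R 4.3.3), with a mean-variance trend and a mean per group, over all libraries of a table. The tables were never mixed, since a shared normalization is not stated. Adjustment was by Benjamini and Hochberg over all genes tested (Benjamini-Hochberg), and every adjusted p in the text is limma's. The fit was also run on simulated data with normal noise and 200 changed genes. No library in that simulation went against its label, so it does not cover that feature of the Western diet table. A change on this scale understates that of low genes. Figures were drawn with matplotlib 3.10.9 from tables made with pandas 2.3.3 in Python 3.11.15.

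In each comparison, full values were given for the 5 largest called changes and for Srebf2, Scap, Insig1, Insig2, Soat1 and Npc1; of other lists, counts and up to 3 genes by adjusted p were the rule, and Srebf1, Hmgcs1, Sqle, Idi1 and others of the 28 beyond the rule were chosen after their values were seen. The 28 genes, the lists and the tests were chosen with earlier results of these data known. Alternatives were a pseudocount of 0.1, a minimum of 5, no filter, a fit of the 6 libraries compared alone, median-ratio scaling, the replicate number as a block and leaving out each library. Leaving out 4 libraries of the Western diet table was added after seeing the data. Promoters to print were to be those with TCACNCCAC; as 1 gene held it, the choice was widened.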

Additional observations from a re-analysis of the deposited data

Results flagged for a closer look

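Dhcr7 and Soat1 stood apart in opposite directions with LPS by label in the 2 tables, a difference that was not tested. In chow macrophages every LPS library was below every untreated one (log2 changes of -2.06 for Dhcr7 and -0.82 for Soat1). That arrangement was seen in 50.1% of all genes tested there. Among libraries labelled Western diet every one with the LPS label was above every one without it (1.87 and 1.12). The same held in 798 of the 10331 genes tested in that table. Soat1 passed the test there, but not when some single libraries were left out, and Dhcr7 did not pass. The libraries labelled Western diet include those whose Ccl5 values go against their label. The untreated chow libraries also differed between the tables. Soat1 had 41.9, 47.1 and 43.0 in those of the fatty acid table and 14.0, 10.6 and 11.65 in those of the Western diet table. Dhcr7 had 4.11, 5.73 and 5.59 against 1.19, 3.64 and 3.61. A shared normalization is not stated, and the part of these differences in the opposite directions was not tested.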

How the results depend on the processing

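The counts of 24 lower genes with LPS and 25 with fatty acid before LPS against untreated stayed within 1.5 times under every alternative run, but scaling shrank single changes with LPS by more, such as Mvd from -0.53 to -0.19 and Soat1 from -0.82 to -0.44. Median-ratio scaling gave 1 higher gene for LPS (Ggps1), 1 lower for added TAK242 against fatty acid (Hmgcs1), and 1 higher (Dhcr7) and 1 lower (Aacs) for fatty acid with TAK242 against LPS. With no filter, fatty acid before LPS against LPS had 1 higher gene and added TAK242 had 0. With only the 6 libraries these counts were 1 and 2, the second adding Scap. A pseudocount of 0.1 gave 1 higher gene, Dhcr7, for fatty acid with TAK242 against LPS. A minimum of 5 left 20 of the 28 genes tested and 0 higher for fatty acid before LPS against untreated, since Ggps1 was not tested.

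For the LPS label among Western diet libraries, the count of 1 higher gene became 0 with no filter, with only the 6 libraries, after scaling and with the replicate number as a block, and without the 4 libraries whose LPS-induced genes went against the label there were 11 lower. Leaving out each library gave 0 to 24 higher genes there and 0 to 14 lower for Western diet against chow. It gave 1 to 2 higher for fatty acid before LPS against LPS, 0 to 1 for added TAK242, and 0 to 1 each way for fatty acid with TAK242 against LPS. Beyond the fewer genes or libraries an alternative leaves, the cause was not tested.

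Replicate numbers were not taken to pair the libraries: the deviations of same-numbered libraries correlated at -0.08 to 0.20 in the fatty acid table (18 pairs of libraries) and at -0.67, 0.68 and 0.76 in the Western diet table. Libraries of different groups and unlike numbers correlated at -0.19 to 0.15 (36 pairs) and at -0.79 to 0.74 (24 pairs). The block changed no other count past 1.5 times. No paired analysis was possible for Western diet against chow because the groups share no numbers. Depth is unknown, so counting error could not be given.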
